A study of Mus musculus with 8 samples.

Results

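2 control populations of mouse embryonic stem (ES) cells were compared directly: the control cells of an overexpression arm (OE control, 2 libraries) and the control cells of a knockdown arm (KD control, 2 libraries). These are 4 of the 8 mRNA-seq libraries of a study of Zscan4, and all are of J1 cells, a line from a male 129 embryo, with the strain given as 12910la and the genotype as wild type. KD control cells received pSuper-puro with a random short hairpin RNA and were selected with puromycin at 2 µg/ml for 7 days. OE control cells received the pCMV-tag2 control and were selected with G418 at 500 µg/ml for 10 days. All groups were transfected with 1000 ng of plasmid, selected from 24 h on, grown on gelatin with 15% serum and 10 ng/ml leukaemia inhibitory factor (LIF), and taken from picked single clones. Whether the 2 libraries of a group come from separate clones or cultures is not in the labels. The p-values reflect the spread between libraries alone, which may be technical. Vector, drug, length of selection, clone and library batch all change together between the 2 control groups, and their parts cannot be told apart. The comparison holds the 17409 genes listed in both arms, of 18821 listed in either, and 763 repeat names. The other 4 libraries, of cells with Zscan4 knocked down (KD Zscan4) or with Zscan4c overexpressed (OE Zscan4), entered the estimate of the spread and are given as levels beside some genes.

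Mouse ES cells in serum and LIF are a mixture of states. Cells move between a naive state, held by LIF signalling through STAT3 and by factors such as NANOG, KLF4 and TFCP2L1, and a more developmentally advanced state marked by the de novo DNA methyltransferases, FGF and MAPK feedback genes, OTX2 and POU3F1. A minority leave toward primitive endoderm, and another minority briefly express genes of the 2-cell embryo, Zscan4 among them. Germline genes are kept silent in ES cells by promoter DNA methylation and by repressor complexes that bind E-boxes.

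Levels are given as counts per M reads (CPM, with M for 1000000) after joint scaling, library by library, with replicate 1 before replicate 2. Where levels are set against each other, the KD control libraries come first and the OE control libraries second. Differences are OE control minus KD control on the scale of log2(CPM + 0.25), with a standard error (SE) and a limma p-value adjusted over all genes tested. "Higher" and "lower" mean OE control relative to KD control, and a gene was called at a false discovery rate of 0.05. Recovered depth was 21.76 and 17.39 M reads in KD control and 20.32 and 17.98 M in OE control. Both groups expressed the markers of the labelled cell type. The 6 ES cell markers summed to 4987 and 5047 CPM in KD control and to 3709 and 3661 CPM in OE control, 4 of them lower and 1 higher. Of 9 markers of primitive endoderm, 8 were lower, and their sum was 160 and 149 CPM in KD control against 31.3 and 30.5 CPM in OE control. Of 8 fibroblast or feeder markers, 5 were measured, with 3 higher and none lower, and their sum was 14.7 and 13.4 CPM against 42.1 and 42.9 CPM. Both fibroblast sums are small beside the ES cell markers, and Col3a1, Dcn and Lum were not in both tables. No measured marker was at 0 reads in a control library. In bulk RNA, fewer cells of a type and less RNA per cell cannot be told apart, and the part of other cell types in the results that follow was not tested.

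The 2 control groups differed in most of the transcriptome. Of 17409 genes, 10742 were called (61.7%), with 5470 higher (31.4%) and 5272 lower (30.3%). At least 2-fold differences were called for 2912 genes, 1717 higher (9.86%) and 1195 lower (6.86%). The middle of the distribution lay at 0.03, with quartiles of -0.41 and 0.48 and with 5% of genes below -1.15 and 5% above 1.41. For 79.6% of genes the libraries of the control groups did not overlap. Because so many genes passed, a call for a single gene carries little weight, and the counts of the gene groups below are read against these shares. Some genes are on more than 1 list, so the counts of different groups are not independent.

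**Figure D1:**
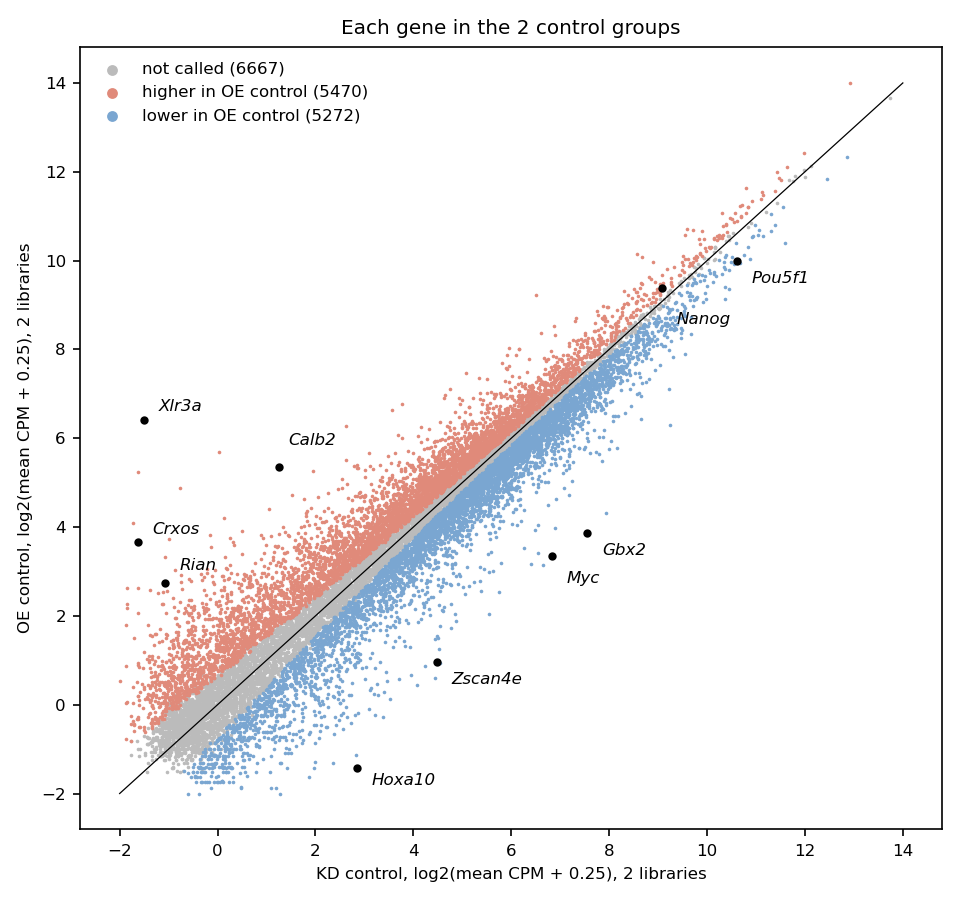
Each point is one of 17409 genes, with the mean level of 2 libraries in KD control on the x axis and in OE control on the y axis, both as log2(CPM + 0.25), and the diagonal marks equal levels. Red points were higher in OE control (5470), blue points lower (5272) and grey points not called (6667), and the named genes Xlr3a, Crxos, Rian and Calb2 lie far above the diagonal while Hoxa10, Zscan4e, Myc and Gbx2 lie far below it.

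Among the highest differences were those of the Xlr genes, X-linked lymphocyte-regulated genes that lie in a cluster and are related to the gene of the meiotic protein SYCP3. Xlr3a (ENSMUSG00000057836, mm10 chromosome X, 73086293 to 73097095) was at 0.0911 and 0.114 CPM in KD control and at 84.8 and 84.4 CPM in OE control. The libraries of the groups were far apart, with a log2 difference of 7.91 (SE 0.12, limma adjusted p = 1.4e-16). Xlr3c was at 0.228 and 0.456 CPM against 28.2 and 29.8 CPM, a difference of 5.65 (SE 0.26). Xlr3b had 3 reads in both KD control libraries together and 1485 in OE control, a ratio of 491 with a 95% counting interval of 168 to 2384. Xlr4a had 2 reads against 666, a ratio of 330 (91.1 to 2733). All 4 measured members were higher, and their median difference was 6.34, against 0.03 over all genes. Near-identical copies can share reads here, so the family as a whole is more certain than each member. The 5 relatives that follow were listed in the OE arm alone and were picked after their values were seen. Xlr5a had 517 and 474 reads in the OE control libraries, Xlr5b 425 and 394, Xlr4b 288 and 265, Xlr4c 161 and 164 and Xlr5c 150 and 156. Every gene listed in an arm had at least 19 reads over its 4 libraries. That is the smallest sum seen and not a stated rule, so the reads of these 5 genes in the KD arm are not known. In the Zscan4 libraries Xlr3a was at 6.34 and 6.60 CPM in KD Zscan4 and at 31.0 and 34.4 CPM in OE Zscan4, levels between those of the controls.

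Next to the Xlr cluster, Pnma5, a relative of the paraneoplastic antigen genes (mm10 chromosome X, 73033981 to 73037103), was at 1.09 and 0.456 CPM against 50.2 and 52.7 CPM. OE control was higher in both libraries, by 5.73 (SE 0.31, limma adjusted p = 1.6e-10). The Rhox genes, a cluster of reproductive homeobox genes elsewhere on the X chromosome, were higher in 6 of 6 measured members, with a median of 2.00. Rhox13 was at 1.23 and 0.456 CPM against 19.9 and 16.7 CPM (4.18, SE 0.24). Rhox10 was at 0.638 and 0.513 CPM against 7.39 and 6.75 CPM (3.15, SE 0.17). The levels of Rhox5, the founding member, were 6.56 and 7.35 CPM against 42.9 and 40.3 CPM (2.54, SE 0.10). None of these 3 genes overlapped between the control groups. The X chromosome as a whole did not stand out, with a median of 0.11 over its genes with a mean of at least 1 CPM.

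Germline and meiosis genes were higher in OE control as a group. Of 35 measured genes, 29 were higher and 1 was lower, 24 were at least 2-fold higher, and the median difference was 1.33. Smc1b, the meiotic cohesin subunit, was at 0.729 and 0.570 CPM against 9.46 and 18.4 CPM. Both OE control libraries exceeded both KD control libraries, by 3.91 (SE 0.25, limma adjusted p = 1.1e-09), although the OE control libraries differed between themselves. Meiob, which binds single-stranded DNA in meiotic recombination, was at 0.456 and 0.456 CPM against 3.28 and 5.02 CPM (2.61, SE 0.32). Tex19.2, a germline gene of the Tex19 family, was at 0.683 and 0.912 CPM against 5.89 and 5.65 CPM (2.53, SE 0.26). Dppa3 (Stella), which protects methylation in the zygote and marks germ cells and naive ES cells, was at 2.87 and 3.76 CPM against 19.4 and 15.2 CPM. It was higher by 2.30 (SE 0.19, limma adjusted p = 2.3e-08) with no overlap between the groups. The testis-specific lactate dehydrogenase gene Ldhc had 3 reads in KD control and 239 in OE control, a ratio of 79.0 (26.7 to 386). The member lower in OE control was Rpl10l, a testis-expressed ribosomal protein retrogene, at 34.7 and 34.2 CPM against 31.4 and 26.2 CPM (-0.26). It no longer passed without KD control replicate 1, KD control replicate 2 or OE control replicate 2. The 5 members not called were Figla (0.76), Taf7l (0.38), Sycp1 (0.14), Nanos3 (-0.25) and Tdrd1 (-0.49).

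The promoters of germline genes are known for E-boxes, the CACGTG letters bound by the MGA, MAX and L3MBTL2 repressors. Windows of 250 bases upstream of RefSeq transcript starts (GRCm38.p6) were found for 32 of the 35 genes, and 13 of the 32 (40.6%) held CACGTG on either strand, against 6.86% of 27025 genes with a window. Here and for the motifs below, this background is a larger set than the 17409 genes compared between the controls. Some genes had more than 1 window, with 32851 windows for the 27025 genes and 37 for the 32 germline genes. There were 21 windows for 11 formative and primed genes, 20 for 17 cholesterol genes and 48 for 34 glycolysis and hypoxia genes. More windows give more room for a match, so the shares of genes are not strictly like for like. The other 3 lists searched were also above that share, with 3 of 11 formative and primed genes (27.3%), 4 of 17 cholesterol genes (23.5%) and 5 of 34 glycolysis and hypoxia genes (14.7%). TCCCGC, letters of the E2F site, were in 10 of the 32 (31.2%) against 18.8% of all genes, 47.1% of the cholesterol list and 38.2% of the glycolysis and hypoxia list. The 3 promoters with 2 E-boxes each are shown because these genes of the PIWI-interacting RNA pathway and of the meiotic chromosome axis were all at least 2-fold higher, and they were picked for display after their values were seen. The E-boxes are in capitals, and each sequence is the gene's own strand, read 5′ to 3′.
Piwil1, chr5:128735996-128736245, plus strand: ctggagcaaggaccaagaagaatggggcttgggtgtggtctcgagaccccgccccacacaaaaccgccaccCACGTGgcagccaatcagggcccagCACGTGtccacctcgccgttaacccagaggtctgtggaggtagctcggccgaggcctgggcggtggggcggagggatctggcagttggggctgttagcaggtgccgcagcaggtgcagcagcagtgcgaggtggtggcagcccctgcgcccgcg
Tdrd9, chr12:111971309-111971558, plus strand: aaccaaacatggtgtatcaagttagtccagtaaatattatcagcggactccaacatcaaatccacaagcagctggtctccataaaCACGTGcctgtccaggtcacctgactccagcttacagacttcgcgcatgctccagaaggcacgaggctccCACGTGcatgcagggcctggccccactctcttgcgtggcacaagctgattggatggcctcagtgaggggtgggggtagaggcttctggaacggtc
Hormad1, chr3:95559427-95559676, plus strand: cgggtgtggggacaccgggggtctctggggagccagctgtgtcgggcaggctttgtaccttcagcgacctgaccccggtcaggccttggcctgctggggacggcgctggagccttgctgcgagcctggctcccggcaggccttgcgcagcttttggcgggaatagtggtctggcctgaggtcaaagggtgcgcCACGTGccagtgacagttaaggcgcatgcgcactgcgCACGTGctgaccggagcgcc
Piwil1, a PIWI protein gene, was at 0.638 and 1.20 CPM against 3.23 and 3.14 CPM (1.6, SE 0.26). Tdrd9, a helicase of the same pathway, was at 0.364 and 0.342 CPM against 1.83 and 1.31 CPM (1.58, SE 0.29). Hormad1, a meiotic axis gene, was at 2.87 and 4.50 CPM against 10.2 and 11.1 CPM (1.5, SE 0.20). OE control was higher in both libraries for each of the 3 genes. The Piwil1 window belongs to a RefSeq start within the gene model of the files. A match of letters is a description of the window and shows no binding. Mga itself was at 89.3 and 81.5 CPM against 90.1 and 117 CPM (0.26, SE 0.10), and it no longer passed without KD control replicate 2 or OE control replicate 2. L3mbtl2 was lower, at 181 and 177 CPM against 96.1 and 90.6 CPM (-0.94, SE 0.06).

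The core pluripotency genes differed in both directions, and more of those named here were lower than higher. Pou5f1, which encodes OCT4, was at 1563 and 1561 CPM against 1050.4 and 989 CPM, and was lower in both OE control libraries by -0.62 (SE 0.06, limma adjusted p = 9.6e-08). Nanog was at 541 and 542 CPM against 654 and 672 CPM, higher in both by 0.29 (SE 0.05, limma adjusted p = 9.8e-05). Sox2 was at 477 and 493 CPM against 502 and 507 CPM and was not called (0.06, SE 0.05, limma adjusted p = 0.33). Zfp42 (REX1) and Esrrb were lower (-0.56, SE 0.05, and -0.31, SE 0.05). Klf4 was at 217 and 212 CPM against 102 and 114 CPM (-0.99, SE 0.07). Of 35 measured genes on the naive pluripotency list, 9 were higher, 19 lower and 7 not called, with a median of -0.31. Those at least 2-fold lower included Dppa2, a factor of early embryonic promoters, at 187 and 206 CPM against 50.5 and 50.3 CPM (-1.95, SE 0.06). Nr0b1 (DAX1) was at 153 and 153 CPM against 45.6 and 42.5 CPM (-1.79, SE 0.06). Beside Dppa3, those at least 2-fold higher were Pecam1 and Tfcp2l1. Pecam1, an adhesion molecule, was at 34.9 and 32.4 CPM against 181 and 170.4 CPM (2.38, SE 0.06). Tfcp2l1, a factor of the naive network, was at 115 and 115 CPM against 225 and 239 CPM (1.01, SE 0.07). The list therefore split by member. Without its members on chromosomes 1 and 11, which are described below, 5 of 30 were higher and 19 lower, with a median of -0.54.

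**Figure D2:**
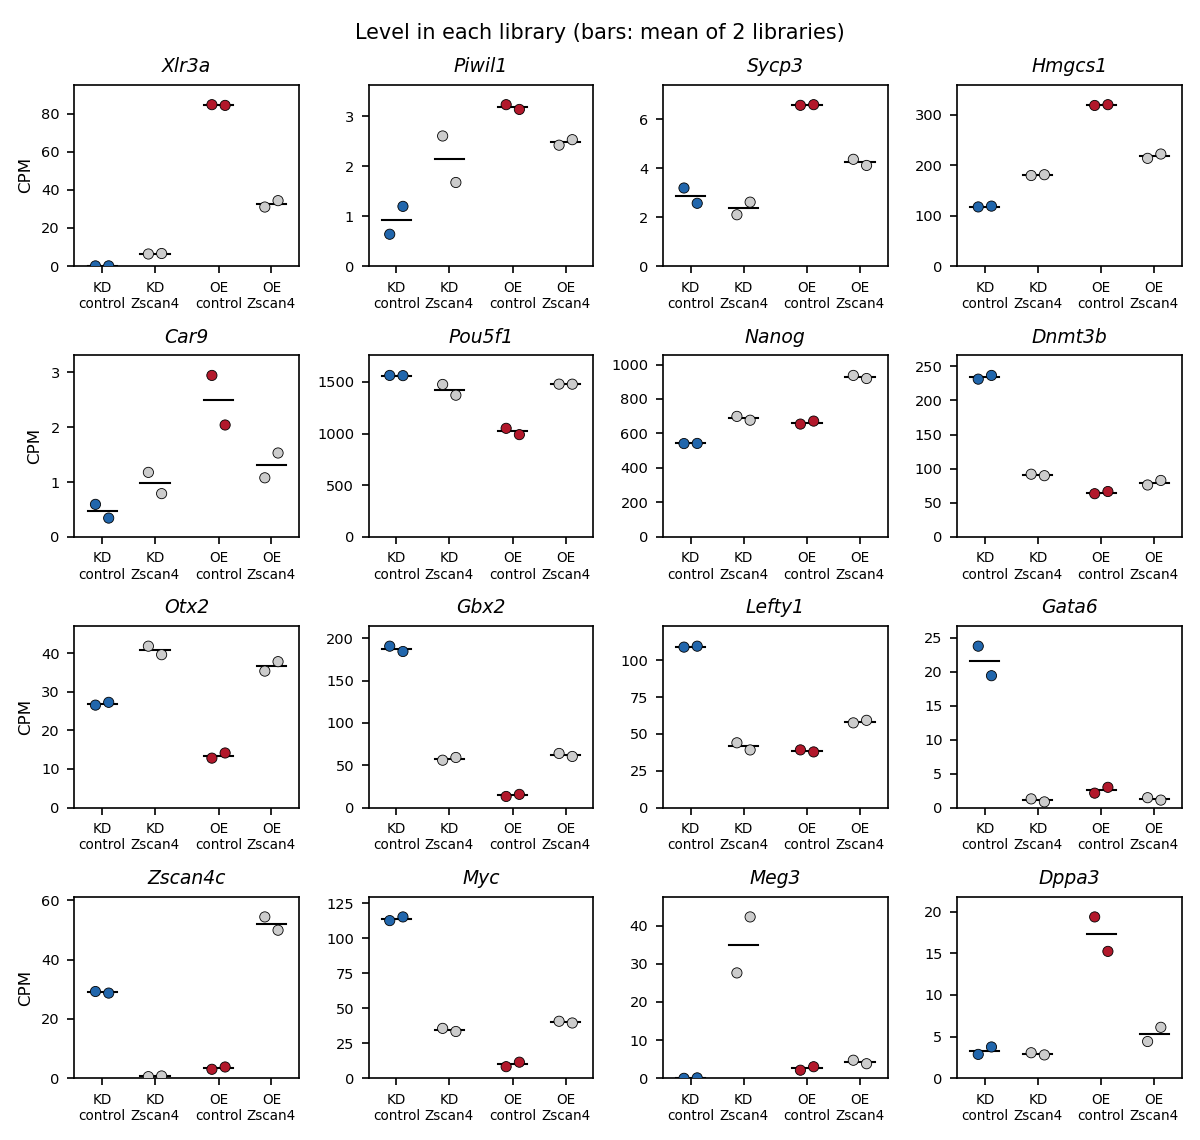
The level (CPM, linear axes from 0) of 16 genes is shown in each of 8 libraries, with KD control in blue, OE control in red, the Zscan4 libraries in grey and a bar at the mean of 2 libraries. Xlr3a, Hmgcs1 and Dppa3 are highest in OE control, and Gata6, Myc, Dnmt3b and Gbx2 are highest in KD control, while the levels of Pou5f1 and Nanog differ less.

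Formative and primed genes gave the most uniform result among the lists of pluripotency. All 20 measured members were lower, 13 of them at least 2-fold, with a median of -1.54. Dnmt3b, a de novo DNA methyltransferase, was at 231 and 237 CPM against 63.2 and 66.4 CPM, with OE control lower in both libraries by -1.85 (SE 0.06, limma adjusted p = 4.1e-13). Dnmt3a was at 377 and 380.5 CPM against 122 and 135 CPM (-1.56, SE 0.06). Sox3, an early neural and epiblast factor, was at 9.75 and 11.4 CPM against 1.16 and 1.67 CPM (-2.71, SE 0.21). Zic2, which works at enhancers of the formative state, was at 52.6 and 58.1 CPM against 9.46 and 8.37 CPM (-2.60, SE 0.08). None of these 4 genes overlapped between the control groups. Otx2, which directs enhancer choice in primed cells, was at 26.5 and 27.2 CPM against 12.8 and 14.1 CPM (-0.99, SE 0.08). In that case the Zscan4 libraries were higher than either control, at 41.8 and 39.6 CPM in KD Zscan4 and 35.3 and 37.8 CPM in OE Zscan4. Fgf5 was not in both tables.

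Targets of growth factor signalling were lower with them. Of 24 immediate early and MAPK feedback genes, 14 were lower and 4 higher, with a median of -0.63. Spry4, an inhibitor of receptor tyrosine kinase signalling, was at 227 and 235 CPM against 41.3 and 47.5 CPM (-2.38, SE 0.06). Dusp6, an ERK phosphatase gene, was at 103 and 109.9 CPM against 21.3 and 23.6 CPM (-2.24, SE 0.07). Both genes are commonly used as readouts of FGF signalling, and both were lower in each OE control library. The immediate early gene Egr1 was not called, at 15.6 and 18 CPM against 18.7 and 16.6 CPM (0.07), and its groups overlapped. Btg2, an antiproliferative gene, was higher, at 36.3 and 36.1 CPM against 65.5 and 64.6 CPM (0.84, SE 0.07).

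Growth genes included some of the largest differences. Myc (ENSMUSG00000022346, mm10 chromosome 15, 61985391 to 61990374), the growth-promoting transcription factor, was at 113 and 115 CPM against 8.30 and 11.5 CPM, and both OE control libraries were far below both KD control libraries (-3.51, SE 0.11, limma adjusted p = 2.3e-13). Mycn was at 345 and 353 CPM against 103 and 108 CPM (-1.73, SE 0.05). The G1 cyclin gene Ccnd1 was at 180.4 and 183 CPM against 54.1 and 57.5 CPM (-1.70, SE 0.06), and Ccnd2 was lower as well (-1.38, SE 0.08). Of 25 genes on the Myc and growth list, 16 were lower and 4 higher, 6 of them at least 2-fold lower, with a median of -0.46. The members that went up were small in size and included the nucleolar genes Npm1 (0.32, SE 0.06) and Ncl (0.35, SE 0.08). Without chromosomes 1, 11 and Y, which are described below, 2 of 20 members were higher and 14 lower, with a median of -0.52. Dkc1 (-0.02), Gnl3 (0.01) and Nop58 (0.00), also nucleolar, were not called. The replication machinery, 41 genes, was split between 18 higher and 17 lower with a median of -0.04, and that median turned positive when library totals replaced the scaling (0.0021) and without OE control replicate 2 (0.01). With chromosomes 1, 11 and Y left out, 12 of 34 replication genes were higher and 11 lower. Prim2, a primase subunit, was higher at 46.4 and 44.7 CPM against 103 and 89.3 CPM (1.07, SE 0.07). Ccne1, cyclin E1, was lower at 364 and 374 CPM against 179 and 177 CPM (-1.05, SE 0.05).

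Components of LIF signalling did not follow one direction. Of 20 genes, 6 were higher and 8 lower, with a median of -0.11. The transducer Stat3 was at 116 and 119.8 CPM against 116 and 115 CPM and was not called (-0.03, SE 0.06), and Jak1, Grb2 and Pim1 were not called either. Gbx2 (ENSMUSG00000034486, mm10 chromosome 1, 89927956 to 89931179), a homeobox target of STAT3 in ES cells, was at 191 and 184 CPM against 13.1 and 15.6 CPM. It was lower in both OE control libraries by -3.69 (SE 0.08, limma adjusted p = 5.1e-15). Another target, Junb, was at 67.3 and 69.2 CPM against 28.9 and 27.8 CPM (-1.26, SE 0.07), whereas the target Tfcp2l1 was higher. Ier3, an immediate early gene, was at 4.74 and 6.27 CPM against 14.2 and 13 CPM (1.28, SE 0.15). Foxd3, a factor needed for pluripotency and not on that list, was at 44.3 and 49.2 CPM against 3.96 and 3.77 CPM (-3.51, SE 0.09).

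The 3 secreted-factor pathways that pattern the early embryo were lower more often than higher. For Nodal and its inhibitors, 12 of 19 genes were lower and 1 was higher, with a median of -0.57. The ligand gene Nodal was at 60.8 and 68.9 CPM against 25.1 and 26.0 CPM (-1.34, SE 0.08). Its antagonist Lefty1 was at 109 and 109.6 CPM against 39.2 and 37.8 CPM (-1.5, SE 0.07). OE control was lower in each library for both genes. The co-receptor gene Tdgf1 was the 1 higher member (0.25, SE 0.05), and Lefty2 was not called (0.10).

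For bone morphogenetic protein (BMP) signalling, 9 of 19 genes were lower and 6 higher, with a median of -0.40. The direct target Id3 was at 41.0 and 42.4 CPM against 6.57 and 4.76 CPM (-2.84, SE 0.12), and Id1 at 117 and 119 CPM against 46.6 and 44.8 CPM (-1.36, SE 0.07). The ligand Bmp7 was higher, at 5.56 and 5.07 CPM against 18 and 20.3 CPM (1.80, SE 0.14), as was the receptor Bmpr2 (1.04, SE 0.14). The targets Id3 and Id1 and the ligand Bmp7 thus differed in opposite directions, and targets and ligands as classes were not compared. For Wnt, 12 of 27 genes were lower and 5 higher, with a median of -0.44 that was -0.22 without KD control replicate 1. The target Sp5 was at 7.29 and 8.60 CPM against 1.06 and 2.04 CPM (-2.24, SE 0.26), and the secreted inhibitor Notum at 20.0 and 19.7 CPM against 4.44 and 3.92 CPM (-2.18, SE 0.14). Lef1, a nuclear partner of β-catenin, was lower as well (-2.14, SE 0.22). The ligand Wnt7b was higher, at 0.957 and 0.855 CPM against 8.01 and 5.76 CPM (2.61, SE 0.22). Ctnnb1, which encodes β-catenin, was not called (0.04).

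Genes of primitive endoderm, the lineage that forms the yolk sac lining, were lower. Of 26 measured genes, 20 were lower, 17 of them at least 2-fold, 3 were higher and 3 were not called, with a median of -1.67. Gata6, the founding transcription factor of the lineage, was at 23.8 and 19.4 CPM against 2.12 and 2.98 CPM. Each OE control library was several-fold below each KD control library (-2.97, SE 0.23, limma adjusted p = 1.1e-08). Gata4 was at 24.9 and 23.2 CPM against 4.25 and 3.82 CPM (-2.51, SE 0.17), and Sox17 at 9.79 and 8.32 CPM against 1.69 and 1.36 CPM (-2.39, SE 0.26). The growth factor receptor gene Pdgfra was at 16.3 and 13.9 CPM against 1.88 and 2.56 CPM (-2.64, SE 0.23). The basement membrane genes that this lineage secretes were lower too, with Col4a1 at 226 and 219 CPM against 51.4 and 48.8 CPM (-2.15, SE 0.07). The 3 higher members were Hnf4a (1.74, SE 0.26), Plat (1.30, SE 0.25) and Nid1 (0.26), whose call was lost without KD control replicate 1. Gata6 was also low in both Zscan4 groups, at 1.28 and 0.838 CPM in KD Zscan4 and 1.45 and 1.10 CPM in OE Zscan4, so KD control was the group that stood apart.

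Markers of other lineages were mixed. Of 14 neural genes, 9 were lower and 2 higher (median -1.09), with Sox1 at 24.1 and 24.4 CPM against 6.18 and 6.91 CPM (-1.85, SE 0.13). Of 17 mesoderm and primitive streak genes, 7 were lower, 1 was higher and 9 were not called (median -0.25), and without KD control replicate 1 the number higher was 2. Its median was -0.44 without OE control replicate 1. Brachyury (T) was near the detection limit at 1.18 and 0.798 CPM against 0.241 and 0.628 CPM, and its call (limma adjusted p = 0.048) was lost without KD control replicate 1 and with several other settings. Of 17 trophectoderm genes, 10 were higher and 5 lower (median 0.76). Krt19, a keratin of simple epithelia, was at 3.74 and 3.76 CPM against 17.4 and 15.5 CPM (2.06, SE 0.17), and the placental homeobox gene Esx1 was at 3.10 and 2.62 CPM against 14.6 and 14.3 CPM (2.24, SE 0.14). The imprinted, retrotransposon-derived Peg10, which is needed for the placenta, was lower, at 587 and 624 CPM against 71.5 and 85.1 CPM (-2.95, SE 0.07). Of 14 fibroblast and mesenchyme genes, 6 were higher and 4 lower (median 0.26, and 0.12 without KD control replicate 1 or OE control replicate 1 and 0.40 without KD control replicate 2), with Thy1 at 5.10 and 4.44 CPM against 20.7 and 19.4 CPM (2.02, SE 0.12) and Vim at 264 and 274 CPM against 86.0 and 82.0 CPM (-1.68, SE 0.06). Extracellular matrix and integrin genes were lower in 18 of 28 and higher in 4 (median -0.34). Hoxa10 and Hoxa7, patterning genes of the HoxA cluster, were among the 15 largest negative differences of all genes. Hoxa10 was at 6.97 and 6.89 CPM against 0.145 and 0.105 CPM (-4.26, SE 0.25). Hoxa7 was at 5.28 and 4.44 CPM against 0.0483 and 0.262 CPM (-3.71, SE 0.30).

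The Zscan4 cluster itself differed between the controls, although both were labelled wild type. The cluster on chromosome 7 holds almost identical copies and switches on in brief bursts in a minority of ES cells. All 9 measured copies were lower, with a median of -3.06. Zscan4c was at 29.2 and 28.7 CPM against 3.04 and 3.82 CPM (-3.0, SE 0.15, limma adjusted p = 6.6e-11), and Zscan4d at 24.2 and 20.7 CPM against 2.70 and 2.46 CPM (-3.0, SE 0.21). Every OE control library was below every KD control library for both copies. Zscan4c was at 0.562 and 0.788 CPM in KD Zscan4 and at 54.4 and 49.9 CPM in OE Zscan4. Of 31 genes of the 2-cell-like list, 29 were lower, all at least 2-fold, and none was higher (median -1.83). Gm4340, a member of a repeated gene cluster expressed at the 2-cell stage, was at 21.5 and 16.0 CPM against 1.64 and 1.52 CPM (-3.36, SE 0.17). Eif1a (0.00) and Trim43a (-0.16) were not called. Duxf3 (Dux), an activator of the 2-cell program, was at 0.729 and 0.627 CPM against 0.0483 and 0.366 CPM (-1.11, limma adjusted p = 0.019), which no longer passed without KD control replicate 1, KD control replicate 2 or OE control replicate 1. Reads of the repeat MERVL, whose long terminal repeat MT2_Mm drives many 2-cell genes, went the same way: MERVL-int was at 284 and 263 CPM against 40.5 and 45.5 CPM (-2.67, SE 0.16) and MT2_Mm at 63.0 and 65.6 CPM against 15.3 and 17.5 CPM (-1.96, SE 0.17).

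**Figure D3:**
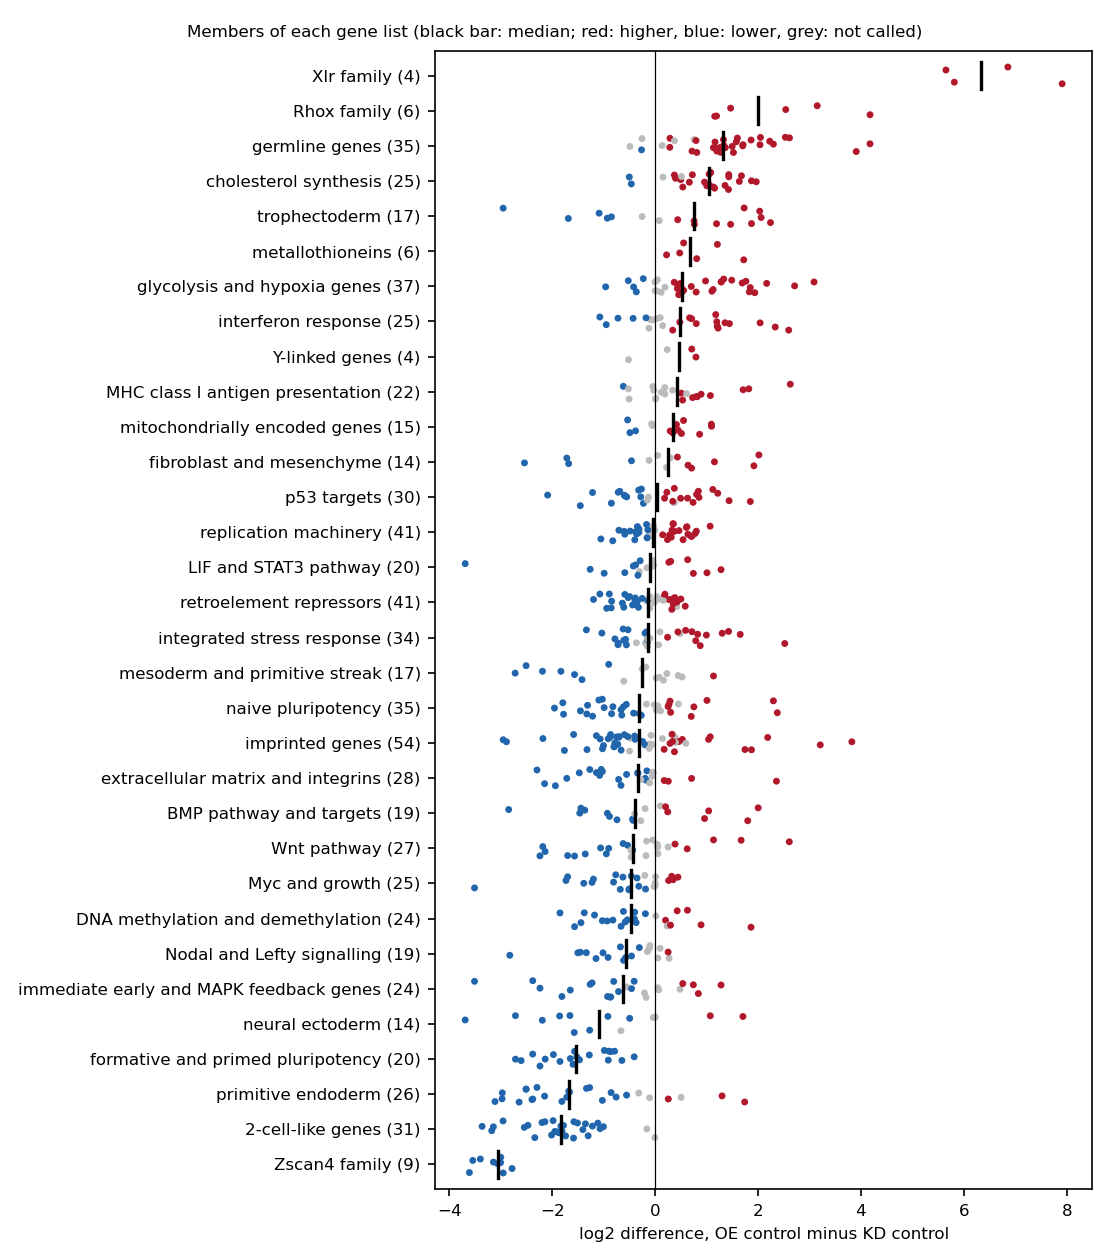
Each dot is 1 measured member of a gene list (rows, with the number measured in parentheses), placed by its log2 difference, OE control minus KD control (x axis), in red if higher, blue if lower and grey if not called, with a black bar at the list's median. The Xlr, Rhox, germline and cholesterol lists lie to the right, with medians of 6.34, 2.00, 1.33 and 1.05, and the formative, primitive endoderm, 2-cell-like and Zscan4 lists to the left, with medians of -1.54, -1.67, -1.83 and -3.06.

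DNA methylation genes were lower in 16 of 24 cases and higher in 6 (median -0.47). Beside Dnmt3a and Dnmt3b, the catalytically inactive cofactor Dnmt3l was at 149.6 and 157 CPM against 87.7 and 85.5 CPM (-0.82, SE 0.06). Zfp57, a zinc finger protein that keeps imprints methylated, was at 415 and 405 CPM against 145 and 157 CPM (-1.44, SE 0.06). Both were lower in each OE control library. Gadd45b, a stress gene linked to demethylation, was higher, at 7.11 and 7.18 CPM against 29.3 and 24.3 CPM (1.86, SE 0.12). Repressors of retroelements and germline genes were lower in 20 of 41 cases and higher in 11 (7 without KD control replicate 2), with a median of -0.14 that was -0.28 without OE control replicate 2. Trim28 (KAP1), which KRAB zinc finger proteins recruit to silence DNA, was at 3063 and 3146 CPM against 1357 and 1353 CPM (-1.20, SE 0.06, limma adjusted p = 3.9e-11). Daxx, a histone chaperone for H3.3, was at 120.1 and 123 CPM against 59.0 and 56.4 CPM (-1.07, SE 0.06). These were the 2 members at least 2-fold lower.

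Imprinted genes differed in both directions, with 14 of 54 higher and 27 lower (median -0.32, and -0.17 without OE control replicate 1). The maternally expressed noncoding RNAs of the Dlk1-Dio3 region on chromosome 12 were near absent in KD control. Meg3 had 2 reads in the KD control libraries and 102 in OE control, a ratio of 50.6 (13.7 to 423). Rian was at 0.273 and 0.171 CPM against 5.84 and 7.01 CPM (3.82, SE 0.15, limma adjusted p = 2.2e-12). Mirg had 2 reads against 8, a ratio of 3.97 whose interval (0.79 to 38.4) includes 1. Both controls were low beside KD Zscan4, where Meg3 was at 27.6 and 42.3 CPM and Rian at 87.0 and 89.8 CPM, and OE Zscan4 was at 4.74 and 3.82 and 14.1 and 13.9 CPM. The region thus separated libraries within the knockdown arm as well as between the controls. H19, maternally expressed on chromosome 7, was at 62.7 and 58.8 CPM against 37.4 and 33.2 CPM (-0.78, SE 0.09). Mest, paternally expressed, was at 312 and 326 CPM against 92.1 and 95.8 CPM (-1.76, SE 0.05). On the X chromosome, Tsix, the antisense repressor of Xist, was at 4.10 and 4.33 CPM against 0.531 and 0.994 CPM (-2.18, SE 0.24). Xist was at 1.82 and 1.71 CPM against 0.290 and 1.47 CPM (-1.07), which no longer passed without KD control replicate 1, KD control replicate 2 or OE control replicate 1. Whether the counting used strand is not given in the sources used here, so reads of these 2 overlapping transcripts are uncertain.

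Cholesterol synthesis genes were higher as a group. Of 25 measured, 21 were higher, 14 at least 2-fold, and 2 were lower, with a median of 1.05. Hmgcs1, which makes the precursor used by the rate-limiting reductase, was at 117 and 119 CPM against 319 and 320.2 CPM (1.43, SE 0.05, limma adjusted p = 9.9e-13). Msmo1, a methylsterol oxidase, was at 60.4 and 59.7 CPM against 244 and 228 CPM (1.97, SE 0.06). Insig1, a sterol-regulated brake on the pathway, was at 32.4 and 30.7 CPM against 118 and 114 CPM (1.87, SE 0.06). In all 3 genes the OE control libraries were well above the KD control libraries and the Zscan4 libraries were in between. A smaller difference was seen for the regulator Srebf2 (0.38, SE 0.05). Ebp, which acts in a late step, was among the lower members (-0.50, SE 0.10). TCACNCCAC, letters of a sterol regulatory element, were in 1 of 17 promoter windows of the list and in 2 of 34 of the glycolysis and hypoxia list, against 1.22% of all genes. Hmgcs1 and Srebf2 were picked after their values were seen.

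Glycolysis and hypoxia genes were higher in 26 of 37 cases and lower in 5, with 14 at least 2-fold higher and a median of 0.52. Aldoc, an aldolase isozyme, was at 12.4 and 10.7 CPM against 101 and 98.4 CPM (3.09, SE 0.11, limma adjusted p = 7.6e-13). Ldhb, the lactate dehydrogenase B subunit, was at 93.4 and 87.7 CPM against 644 and 549 CPM (2.71, SE 0.07). Ankrd37, a direct hypoxia target, was at 5.01 and 4.05 CPM against 22.9 and 19.5 CPM (2.17, SE 0.14). Car9, a carbonic anhydrase often used as a hypoxia marker, was at 0.592 and 0.342 CPM against 2.94 and 2.04 CPM (1.94, SE 0.30). The OE control libraries were higher without overlap in all 4. The glycolytic enzyme gene Gapdh was at 4512 and 4411 CPM against 4829 and 4109 CPM and was not called (0.00), and the hypoxia-responsive genes Hk2 and Pdk1 were not called (0.03 and 0.00). The glucose transporter genes Slc2a1, at 1320.0 and 1314 CPM against 668 and 686 CPM (-0.96, SE 0.06), and Slc2a3 (-0.52, SE 0.05) were lower. The core of the hypoxia response element, ACGTG on either strand, was in 19 of 34 promoter windows (55.9%) against 18.5% of all genes, and these letters also lie within CACGTG. The share was 53.1% in the germline list, 45.5% in the formative and primed list (5 of 11 windows) and 23.5% in the cholesterol list. The windows of the 2 hypoxia markers are shown, 250 bases upstream of the RefSeq start, with the match in capitals, written CACGT where it is on the opposite strand.
Ankrd37, chr8:45999851-46000100, minus strand: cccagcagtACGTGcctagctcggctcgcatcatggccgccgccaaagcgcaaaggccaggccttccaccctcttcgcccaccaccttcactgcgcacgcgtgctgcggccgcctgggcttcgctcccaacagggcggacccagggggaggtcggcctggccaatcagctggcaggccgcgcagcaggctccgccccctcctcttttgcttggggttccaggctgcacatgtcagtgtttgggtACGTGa
Car9, chr4:43506776-43507025, plus strand: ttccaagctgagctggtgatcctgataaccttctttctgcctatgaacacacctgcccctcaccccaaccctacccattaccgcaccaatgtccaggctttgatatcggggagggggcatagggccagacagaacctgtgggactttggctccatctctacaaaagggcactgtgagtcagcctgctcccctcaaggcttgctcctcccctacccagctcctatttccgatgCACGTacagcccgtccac
A match is again only a description of the letters. Of 15 mitochondrially encoded genes, 10 were higher and 3 lower (median 0.35), with mt-Co1, a cytochrome oxidase subunit, at 7853 and 7549.6 CPM against 17672 and 15300.3 CPM (1.09, SE 0.09) and mt-Nd4, a complex I subunit, at 1202 and 1109 CPM against 750.1 and 849 CPM (-0.53, SE 0.08).

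Stress and immune genes differed by member. All 6 metallothionein and zinc-response genes were higher (median 0.68), with Mt1 at 74.7 and 68.6 CPM against 177 and 156 CPM (1.21, SE 0.07). Integrated stress response genes were higher in 12 of 34 cases and lower in 14 (median -0.14, and -0.09 without OE control replicate 2). Ddit3 (CHOP), a stress-induced transcription factor, was at 5.88 and 5.36 CPM against 36.3 and 30.7 CPM (2.52, SE 0.12, limma adjusted p = 5.5e-11), while Atf4, upstream of it, was not called (0.07). Among p53 targets, 14 of 30 were higher and 13 lower (median 0.03, and -0.01 without KD control replicate 2 or OE control replicate 1). Cdkn1a (p21), a cell cycle inhibitor, was at 37.4 and 35.1 CPM against 80.1 and 78.2 CPM (1.12, SE 0.07), whereas Trp53 itself was at 635 and 660.1 CPM against 356 and 362 CPM (-0.85, SE 0.05). Interferon response genes were higher in 14 of 25 cases and lower in 5 (3 without KD control replicate 2), with a median of 0.48. Oas1a, an RNA sensor, was at 1.82 and 1.65 CPM against 13.2 and 10.5 CPM (2.60, SE 0.16). Of 22 genes for MHC class I antigen presentation, 10 were higher and 1 was lower (2 without KD control replicate 2), with a median of 0.43. H2-T22, a nonclassical class I gene with close relatives, was at 3.01 and 3.08 CPM against 13 and 9.94 CPM (1.82, SE 0.17). The classical gene H2-D1 was not called (0.12).

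Other genes among the 15 largest differences in each direction, not on these lists, are known from varied tissues. Calb2 (calretinin), a calcium-binding protein of neurons, was at 2.28 and 1.99 CPM against 41.1 and 40.1 CPM (4.10, SE 0.11, limma adjusted p = 4.3e-14). G0s2, an inhibitor of lipolysis, was at 0.0456 and 0.228 CPM against 5.31 and 6.12 CPM (3.99, SE 0.28). Crxos, a homeobox gene of the preimplantation embryo and ES cells, had 3 reads in KD control and 492 in OE control, a ratio of 163 (55.3 to 792). Among the lower genes, Car2, a carbonic anhydrase, was at 234 and 253 CPM against 18.8 and 20.8 CPM (-3.61, SE 0.07, limma adjusted p = 1.5e-15). Zfhx2, a zinc finger homeobox gene, was at 99.4 and 99.4 CPM against 6.76 and 10.6 CPM (-3.52, SE 0.13). Only genes whose control groups did not overlap were ranked, so the lack of overlap in these genes follows from the choice. Some genes were listed in the KD arm alone, among them developmental genes picked after their values were seen: Olig3 had 174 and 112 reads in the KD control libraries, Wnt8a 156 and 108, Dkk1 76 and 48, Cdx2 64 and 46 and Foxa2 50 and 28.

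Chromosome 1 was higher over its whole length. Of its 840 genes with a mean of at least 1 CPM over all 8 libraries, 582 were higher and 88 lower. The median difference was 0.60, with a range of 0.58 to 0.60 over the 4 pairs of control libraries. Divided into 8 consecutive bins of genes, chromosome 1 had medians of 0.40 to 0.91, and 82.7% of its genes had a positive difference. Chromosome 11 was also higher, with 628 of 1203 genes higher and 244 lower, a median of 0.29 and bins of 0.08 to 0.41. On the other chromosomes except Y the medians were -0.16 to 0.13. The median of chromosome 1 was also positive in KD Zscan4 against KD control (0.53), and that of chromosome 11 was negative in OE Zscan4 against OE control (-0.31). These comparisons share the control libraries with the one described here. KD control was thus the group with the lower chromosome 1 level, and OE control the group with the higher chromosome 11 level. Copy number was not measured, and its part was not tested. With chromosomes 1, 11 and Y left out, 9053 of 15012 genes were called. Of 4 Y-linked genes, 2 were higher and none was lower, but no more than 1 was higher with any one control library left out, and none with a pseudocount of 0.05 CPM. Eif2s3y, a translation factor gene, was at 34.6 and 30.4 CPM against 54.9 and 51.8 CPM (0.71, limma adjusted p = 0.015), a call lost without KD control replicate 2 and without OE control replicate 1. Ddx3y, an RNA helicase gene, was at 21.5 and 19.9 CPM against 12.1 and 17.2 CPM and was not called (-0.52). In the fit of the 4 control libraries alone, 1 of the 4 Y-linked genes was lower. The same held with DESeq2, edgeR, limma-voom and a pseudocount of 1 CPM. The 4 genes summed to 68.5 and 61.6 CPM against 81.3 and 85.2 CPM. Their sum was only 0.538 and 1.10 CPM in OE Zscan4, whose libraries also entered the estimate of the spread.

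**Figure D4:**
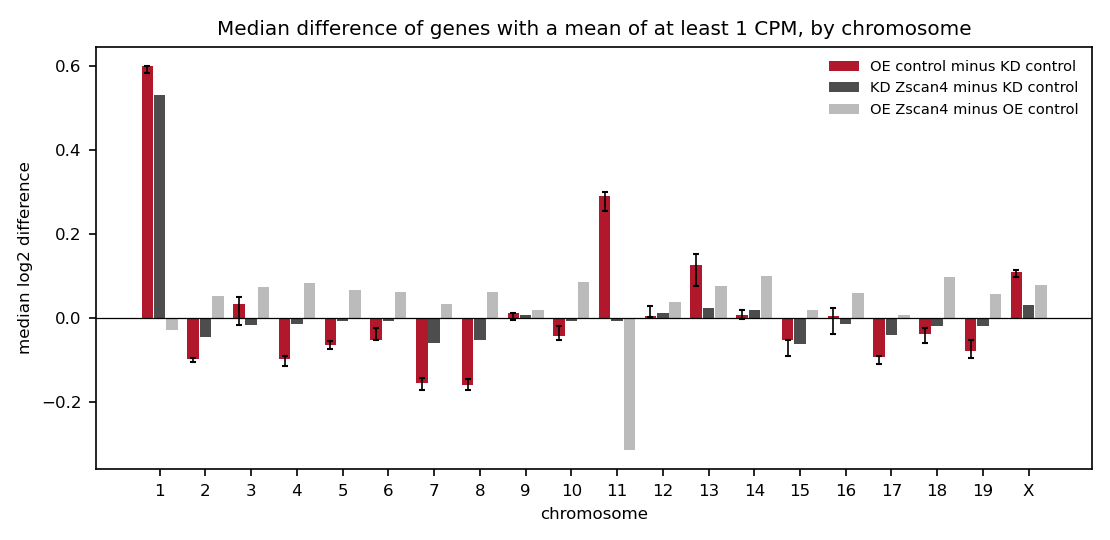
Bars give the median log2 difference of the genes with a mean of at least 1 CPM on each chromosome (x axis), for OE control minus KD control in red, with whiskers from the lowest to the highest of the 4 pairs of control libraries, KD Zscan4 minus KD control in dark grey and OE Zscan4 minus OE control in light grey. Chromosome 1 is at 0.60 and chromosome 11 at 0.29 for the controls, and the other chromosomes lie between -0.16 and 0.13.

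Repeat transcripts gave a result that depended on how libraries were scaled. Scaled by the genes, 378 of 763 repeat names were higher (49.5%) and 30 lower (3.93%), with a median of 0.58. Scaled by the repeat names themselves, 65 were higher (8.52%) and 106 lower (13.9%), with a median of 0.02. All repeat names together were at 18140 and 17389 CPM in KD control and at 17439 and 22236 CPM in OE control, so the 2 OE control libraries differed from each other. The sums were 22125 and 22457 CPM in OE Zscan4 and 15829 and 18266 CPM in KD Zscan4. Without OE control replicate 2, 266 of the 763 names were called, and without KD control replicate 2, 233 were called. The 30 names lower under the gene scaling were lower under both scalings, and 65 were higher under both.

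Among the names lower under both were young LINE-1 elements, the retrotransposons still active in mice. L1Md_A was at 165 and 140.5 CPM against 43.9 and 57.0 CPM (-1.6, SE 0.16). L1Md_T was at 189 and 163 CPM against 56.4 and 69.7 CPM (-1.48, SE 0.16), and L1Md_Gf was lower by a like amount (-1.57, SE 0.26). Both OE control libraries were below both KD control libraries for L1Md_A and L1Md_T, and these names were picked after their values were seen. Over the 13 young LINE-1 names, 4 were higher and 4 lower under the gene scaling, and 0 and 8 under the repeat scaling. The number higher was 1 without KD control replicate 2 or without OE control replicate 2, 7 without OE control replicate 1, and 1 in a fit of the 4 control libraries alone. Among endogenous retroviruses, IAPEy-int, the internal part of an intracisternal A particle family, was at 0.774 and 0.513 CPM against 10.3 and 13 CPM (3.74, SE 0.30). RLTR34B_MM was at 2.46 and 2.62 CPM against 21.9 and 20.9 CPM (2.96, SE 0.21). Both were higher under both scalings, without overlap. RLTR6B_Mm, a gammaretroviral repeat, was lower at 11.7 and 10.3 CPM against 2.85 and 3.45 CPM (-1.73, SE 0.22). Intracisternal A particle names were higher in 7 of 17 cases and lower in 2 under the gene scaling, and 2 and 3 under the repeat scaling (4 higher without KD control replicate 2 and 1 lower without OE control replicate 1, both by the gene scaling). Of 8 MERVL names, 5 were higher and 2 lower, and 1 and 3 under the repeat scaling. Only 2 MERVL names were higher without KD control replicate 2 or without OE control replicate 2, and 3 without KD control replicate 1 or in the fit of the controls alone, while the 2 lower names, MERVL-int and MT2_Mm, passed in each case. Older MaLR elements (21 higher and 0 lower of 30) and SINEs (22 and 0 of 23) became 5 and 8, and 1 and 5, under the repeat scaling, and SINEs had 9 higher without KD control replicate 2 and MaLR elements 1 lower without OE control replicate 2.

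**Figure D5:**
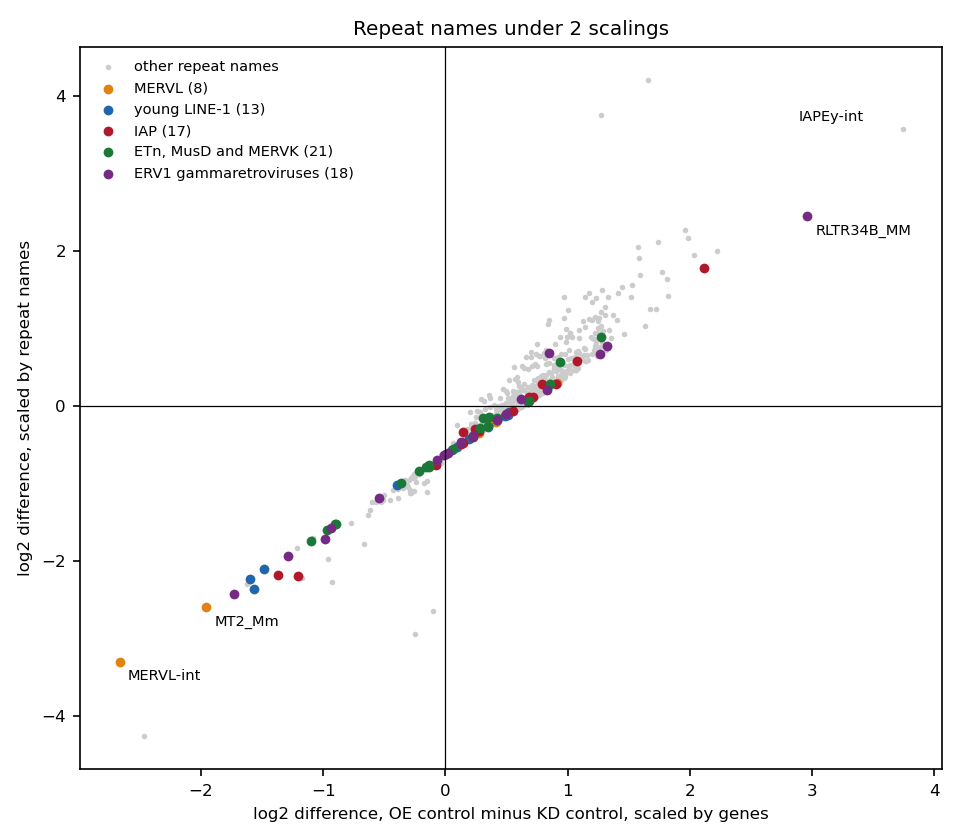
Each dot is 1 of 763 repeat names, with the log2 difference between OE control and KD control scaled by genes on the x axis and scaled by the repeat names on the y axis, and families in colour with the number of names in parentheses. The cloud lies below the diagonal, since the median is 0.58 on the x axis and 0.02 on the y axis, while MERVL-int and MT2_Mm are negative and IAPEy-int and RLTR34B_MM positive on both.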

How the data were processed

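Libraries were grouped by their titles. The authors deposited normalised signal per gene and per repeat name, in separate tables for each arm. The submitters' processing notes name cutadapt, HISAT2 with mm10, featureCounts and DESeq2, without versions. Tested on the files, the deposited gene signal is whole reads divided by 1 factor per library (within 0.01 of a whole number), and these reads were recovered.

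The 8 gene columns were scaled jointly with TMM (edgeR 4.0.16, R 4.3.3; factors 0.935 to 1.06) and tested with limma 3.58.1 (trend, log2(CPM + 0.25), all 8 libraries in 4 groups, two-sided, Benjamini-Hochberg). Repeat names used the same library sizes and test. Chi-square per degree of freedom between the 2 libraries of a group was 2.85 (KD control) and 4.84 (OE control), above counting noise. The procedure was tested on simulated data. Intervals cover counting error only, since reads had no stated molecular identifiers.

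The comparison, gene lists and naming rule were chosen with earlier results of these data known. Named by rule were the 15 largest differences per direction among called genes averaging 1 CPM or more in the controls whose groups did not overlap, up to 4 called members per list and direction, the 5 largest repeats per direction and a fixed set (Pou5f1, Nanog, Zscan4c, Meg3 and others). Other members, and those not called, were named after their values were seen. Lists are described by counts and medians, with no test. Some share members, such as Rhox13 (Rhox and germline), Myc (growth and MAPK feedback), Gbx2 (LIF and neural) and Peg10 (imprinted and trophectoderm). Promoter windows came from RefSeq. Alternatives were other scalings, pseudocounts, filters, tools, a replicate block, each library left out and chromosomes 1, 11 and Y left out, the last chosen after seeing the data. Some genes that these rules name are not reported here.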

Additional observations from a re-analysis of the deposited data

How the results depend on the processing

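The number of genes called was between 9053 and 10817 under every alternative run, against 10742, with 10755 by edgeR's quasi-likelihood test, 9166 by DESeq2 and 9142 to 9796 with one library left out. Fewer genes were tested in 2 of these settings. The 9053 were of 15012 genes, without chromosomes 1, 11 and Y, and genes averaging 1 CPM or more gave 10034 of 14779. The number at least 2-fold fell from 2912 to 1897 with a pseudocount of 1 CPM. Repeat names called fell from 408 to 171 when scaled over repeat names, and ranged from 233 to 447 with one library left out. The median of chromosome 1 was 0.58 with median-of-ratios scaling, 0.63 with upper quartiles, 0.64 with library totals, 0.61 with a pseudocount of 0.05 CPM and 0.55 with 1 CPM, and 0.58 to 0.60 with one library left out. That of chromosome 11 was 0.33 with upper quartiles, 0.34 with library totals, 0.22 for genes averaging 10 CPM or more, and 0.27 to 0.31 with one library left out. Among 239 named genes and repeats, 3694 of 3754 alternative values kept direction and call, 55 calls were lost, 5 were gained and none reversed. Most of these 239 were named for their large differences in the main fit, which favours such stability. Wnt genes lower numbered 6, against 12, without chromosomes 1, 11 and Y, where members on those chromosomes were left out. In that setting the median of the LIF list was -0.25 (-0.11 with all members), of the matrix and integrin list -0.61 (-0.34), of the retroelement repressors -0.24 (-0.14), of the fibroblast list 0.09 (0.26), of the mesoderm list -0.15 (-0.25) and of the p53 targets -0.09 (0.03). Same-numbered libraries of the 2 controls shared only a number: the correlation of their deviations was -0.053, and a replicate block gave 10779 genes and 417 repeat names. Differences of a few reads, as for Mirg or Duxf3, are limited by depth, and 2 libraries per group limit all.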

Other observations

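Further gene families, picked after their values were seen and given without a test, also differed in one direction more than the other. Some of their members are on the lists above and are counted again here, such as Sox1, Sox3, Sox17, Krt19 and Tex19.2. Of 15 measured Hox genes, which pattern the body axis, 11 were lower and 1 was higher, 8 of them at least 2-fold lower, with a median of -1.36. The calls of Hoxc4 (higher), Hoxb13 (lower) and Hoxb7 (lower) were each lost under at least 1 alternative. Of 17 measured Sox genes, which encode transcription factors, 11 were lower, 1 was higher and 5 were not called (median -0.99). The gamma-A protocadherins, adhesion genes that share a cluster and their 3′ exons, were lower in 11 of 12 cases with none higher (median -0.50), and shared reads make single members uncertain.

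In the other direction, cytosolic ribosomal protein genes were higher in 52 of 88 cases and lower in 12, with a small median of 0.25. Tex genes, named for their expression in testis, were higher in 13 of 17 cases and lower in 1 (median 1.07). Regulators of G protein signalling (Rgs) were higher in 9 of 13 cases and lower in 3 (median 1.06). Keratins were higher in 7 of 13 cases and lower in 2 (median 0.44). Of the higher keratins, Krt17, Krt19, Krt42 and Krt222 lie on chromosome 11 and Krt7, Krt18 and Krt79 on chromosome 15. The calls of Krt79 (higher) and Krt71 (lower) were each lost under some alternatives. The part of chromosomes 1 and 11 in these family counts was not tested. Genes of the signal recognition particle (Srp) were higher in 8 of 8 cases (median 0.51). Platr noncoding RNAs, first described as transcripts tied to pluripotency, were higher in 11 of 21 cases and lower in 5 (median 1.00). Proteasome genes did not share a direction, with 15 of 37 higher and 8 lower (median -0.02).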
